A study of Mus musculus with 346 samples.

Results

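Cells carrying Afp, the gene of alpha-fetoprotein and a classical product of the early liver, were compared between the ventral pancreatic bud and the liver of mouse embryos at embryonic day (E) 10.5. The cells were chosen by their Afp level alone. On the ventral side, 19 of 27 cells had a level of at least 5, and on the liver side 46 of 78 cells had a level of at least 10, so that 65 of the 346 cells of the series were used. A level is the log2 of a cell's normalized reads plus 1, a difference is the mean level of the ventral cells minus that of the liver cells, and a gene was called detected in a cell with at least 5 normalized reads.

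All embryos carried the Tg(Prox1-EGFP) transgene, and every cell of every group was sorted for green fluorescent protein, so the reporter was common to both sides and no group without it enters. Ventral bud cells came from 1 plate and liver cells from another, and dorsal bud cells of the same day (86 cells on 2 plates) are given beside them as a reference. A part of the dorsal cells held markers of other cell types, as given below. Foregut cells (82), from younger embryos at E8.5, enter only in a comparison of mean profiles. Each cell was sorted into its own well and made into its own Nextera XT library. The labels name no animal and do not say whether embryos were pooled, so each side counts as 1 sample, no test could be made, and plate and tissue cannot be told apart.

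The liver and the ventral pancreas arise from neighbouring parts of the ventral foregut endoderm, and the duct system outside the liver arises between them. Hepatoblasts, the bipotent cells of the early liver, leave the epithelial sheet and begin to secrete plasma proteins: carriers such as albumin, apolipoproteins that coat lipid particles, and clotting factors. Prox1 and Hhex are homeobox factors needed for the growth of the liver bud, Hnf4a is a nuclear receptor of hepatocyte maturation, Sox17 marks the primordium of the gallbladder and bile duct, and Pdx1 marks the pancreatic bud.

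Alb and Afp are neighbouring genes of a common ancestry, both on the plus strand of chromosome 5 (GRCm38). Alb lies at chr5:90460897-90476602 and Afp at chr5:90490737-90508907, with 14134 bases between them. Fga encodes the alpha chain of fibrinogen and lies at chr3:83026076-83033627 on the plus strand. The 250 bases before the RefSeq start are printed for these genes because their windows held the motif given below. Afp defined the cells on both sides, while Alb and Fga are liver genes that nearly all of the ventral cells lacked. The sequences are from RefSeq (GRCm38.p6), read 5′ to 3′ at chr5:90490464-90490713, chr5:90460620-90460869 and chr3:83025903-83026152, all on the plus strand. Capitals mark a match to GTTAATNAT, a motif of several liver promoters. In Fga the match is on the minus strand, so its capitals show the reverse complement.
Afp: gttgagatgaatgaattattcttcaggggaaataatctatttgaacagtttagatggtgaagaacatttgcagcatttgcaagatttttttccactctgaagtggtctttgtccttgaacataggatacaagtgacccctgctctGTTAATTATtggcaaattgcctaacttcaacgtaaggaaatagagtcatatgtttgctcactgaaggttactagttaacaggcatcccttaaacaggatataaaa
Alb: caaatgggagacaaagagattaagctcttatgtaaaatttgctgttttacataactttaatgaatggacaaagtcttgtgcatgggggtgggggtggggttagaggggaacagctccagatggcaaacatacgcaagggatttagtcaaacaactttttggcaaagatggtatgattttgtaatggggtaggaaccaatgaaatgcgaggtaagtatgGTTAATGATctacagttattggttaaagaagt
Fga: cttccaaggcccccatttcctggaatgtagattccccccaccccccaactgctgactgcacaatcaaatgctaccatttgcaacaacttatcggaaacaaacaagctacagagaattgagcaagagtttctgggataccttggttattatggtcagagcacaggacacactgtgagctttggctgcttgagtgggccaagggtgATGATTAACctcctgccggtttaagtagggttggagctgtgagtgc

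The match began 105 bases before the RefSeq start in Afp, 32 in Alb and 46 in Fga. These starts are not those of the gene positions above, which are from GENCODE: the RefSeq start lies 23 bases upstream of the GENCODE start in Afp and 27 in Alb, but 77 bases downstream in Fga, whose match thus lies inside the GENCODE gene. The windows of Ambp, Prox1 and Serpind1, read by the same rule, held no match and are not printed, so the 3 shown were picked for holding one. Both strands were searched, and 0.733% of 20590 mouse promoter windows of this length held the motif. Among the hepatic genes that the ventral cells shared with the liver, defined below, 1 of 19 with a promoter entry held it (Afp), and among those they lacked 2 of 11 did (Alb and Fga). The FoxA-type motif TGTTTAC, present in 2.75% of all windows, was found in 2 of the 19 shared and 0 of the 11 lacking promoters. The HNF4-type motif CAAAGTNCA, present in 1.19% of all windows, was found in 0 of both. These matches describe the letters of the windows and are not evidence of binding.

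Liver cells were sequenced more deeply, with a median of 2657340 reads per cell (1416104 to 3431728) against 831359 (647197 to 1942199) in the ventral cells. The number of genes detected was nevertheless of the same order, with a median of 3433 per ventral and 3102.5 per liver cell, and 3388 against 3094 after each cell was thinned to 500000 reads. Mitochondrial genes took a median of 0.874% of normalized reads in ventral and 3.15% in liver cells. The part of these differences in the results was not tested, except where thinned values are given. No cell of either side carried 3 or more markers of blood, leukocyte, endothelial, mesenchymal, mesothelial, cardiac, neural or endocrine cells (0 of 19 and 0 of 46), whereas 26 of the 32 other liver cells did. So did 38 of the 86 dorsal cells, most often with endocrine (20 cells) or mesenchymal markers (16 cells). Dorsal shares are thus those of a mixed set.

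Afp itself differed in level between the sides. In the 19 ventral cells it ran from 6.30 over a median of 9.70 to 12.75 (mean 9.56 ± 1.84, SD over cells), and in the 46 liver cells from 11.60 over 14.80 to 15.84 (14.68 ± 0.84). The difference was -5.12, and the ranges touched only through 3 ventral cells above the lowest liver cell. These values chose the cells and are a description. Of the cells just outside the limits, all 8 other ventral cells were at 0, and among the other liver cells the highest level was 6.57 and 25 of 32 were at 0, so no ventral cell lay between 0 and 6.30 and no liver cell between 6.57 and 11.60. Afp was also detected in 13 of 86 dorsal cells, with a highest level of 7.85.

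The further markers of the comparison, Apoa2, Hhex and Epcam, were all present on the ventral side. Apoa2, encoding apolipoprotein A-II, was detected in 14 of 19 ventral cells (73.7%, exact Clopper-Pearson 95% interval 48.8 to 90.9%), in 46 of 46 liver cells and in 4 of 86 dorsal cells. Hhex was detected in 15 of 19 ventral (78.9%, 54.4 to 93.9%), 29 of 46 liver (63%, 47.5 to 76.8%) and 7 of 86 dorsal cells. Epcam, an adhesion molecule of epithelial sheets, was detected in 17 of 19 ventral (89.5%, 66.9 to 98.7%) but only 6 of 46 liver cells (13%, 4.94 to 26.3%). The tissue label of the ventral cells names the pancreas, yet Pdx1 was detected in 2 of the 19 (10.5%, 1.30 to 33.1%) against 6 of the 8 ventral cells without Afp. All such intervals cover counting error only, since PCR reads are not independent molecules and cells of 1 plate are not replicates.

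Across all genes there were differences in both directions, and their balance depended on the setting. Of 6276 genes with a share of at least 25% on one side, 1702 (27.1%) were higher in the ventral cells by at least 1 and 1745 (27.8%) were lower, and the median difference was 0.09. With median-of-ratios scaling in place of the deposited size factors the split was 2127 higher to 1166 lower, and with scaling by total reads 2076 to 1228, and these scalings moved the median of all genes by 0.28 and 0.25. It was 670 to 1241 with a pseudocount of 10, 918 to 2064 as a log2 ratio of mean normalized reads, and 2213 to 1687 without the 3 ventral cells with Afp above 12. The hepatic genes lay mostly on the lower side. Of 88 measured members of 12 lists of hepatic products, 6 were higher by at least 1 and 62 lower, with a median difference of -2.24 (-2.22 on thinned reads), and without Afp 61 of 87 were lower. Over all 8379 genes measured in the same way, 24.8% were higher and 23% lower.

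A gene of the liver cells, detected in at least 50% of them, was called shared when at least 50% of the ventral cells had it and lacking when at most 25% did. Of 2252 such genes 1703 were shared (75.6%) and 97 were lacking (4.31%). Among the 49 that belong to the hepatic lists or to a list of liver bud transcription factors, 20 were shared (40.8%), 11 lay in between and 18 were lacking (36.7%). The 20 shared genes were Afp, Ambp, Apoa2, Apoe, Apom, Dlk1, Fgb, Fgg, Gpc3, Hhex, Igf2, Itih2, Kitl, Prox1, Serpina1b, Serpinf1, Serpinf2, Ttr, Vtn and Xbp1. The 18 lacking genes were Alb, Apoa1, Apoc1, Cpb2, F10, Fabp1, Fga, Hnf4a, Kng1, Lgr5, Lpl, Mttp, Plg, Serpina10, Serpina6, Serpinc1, Serpind1 and Spp2. Afp is shared by the choice of the cells, and Prox1 drives the reporter on which they were sorted; without both, 18 of 47 were shared (38.3%) and 18 lacking. All 20 and all 18 kept their class on reads thinned to equal depth.

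The classes also differed in measures that did not define them. The shared genes had a median of mean liver levels of 11.22, and 15 of 20 were detected in every liver cell, while for the lacking genes the median was 5.83 and 1 of 18, Apoa1, was in every liver cell. Shared genes were detected in a median of 30.8% of dorsal cells and 62.5% of the 8 other ventral cells, against 2.91% and 0% for the lacking genes. Being shared did not mean equal levels: 14 of the 20 were lower in the ventral cells by at least 1 and 5 were within 1. Hhex alone was higher by at least 1, and the median difference over the 20 was -2.75. Over all 8379 measured genes, not chosen by liver share, 23% were lower by at least 1. The share among all 1703 shared genes is not given here. The part of the liver level in the classes was not tested.

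**Figure D1:**
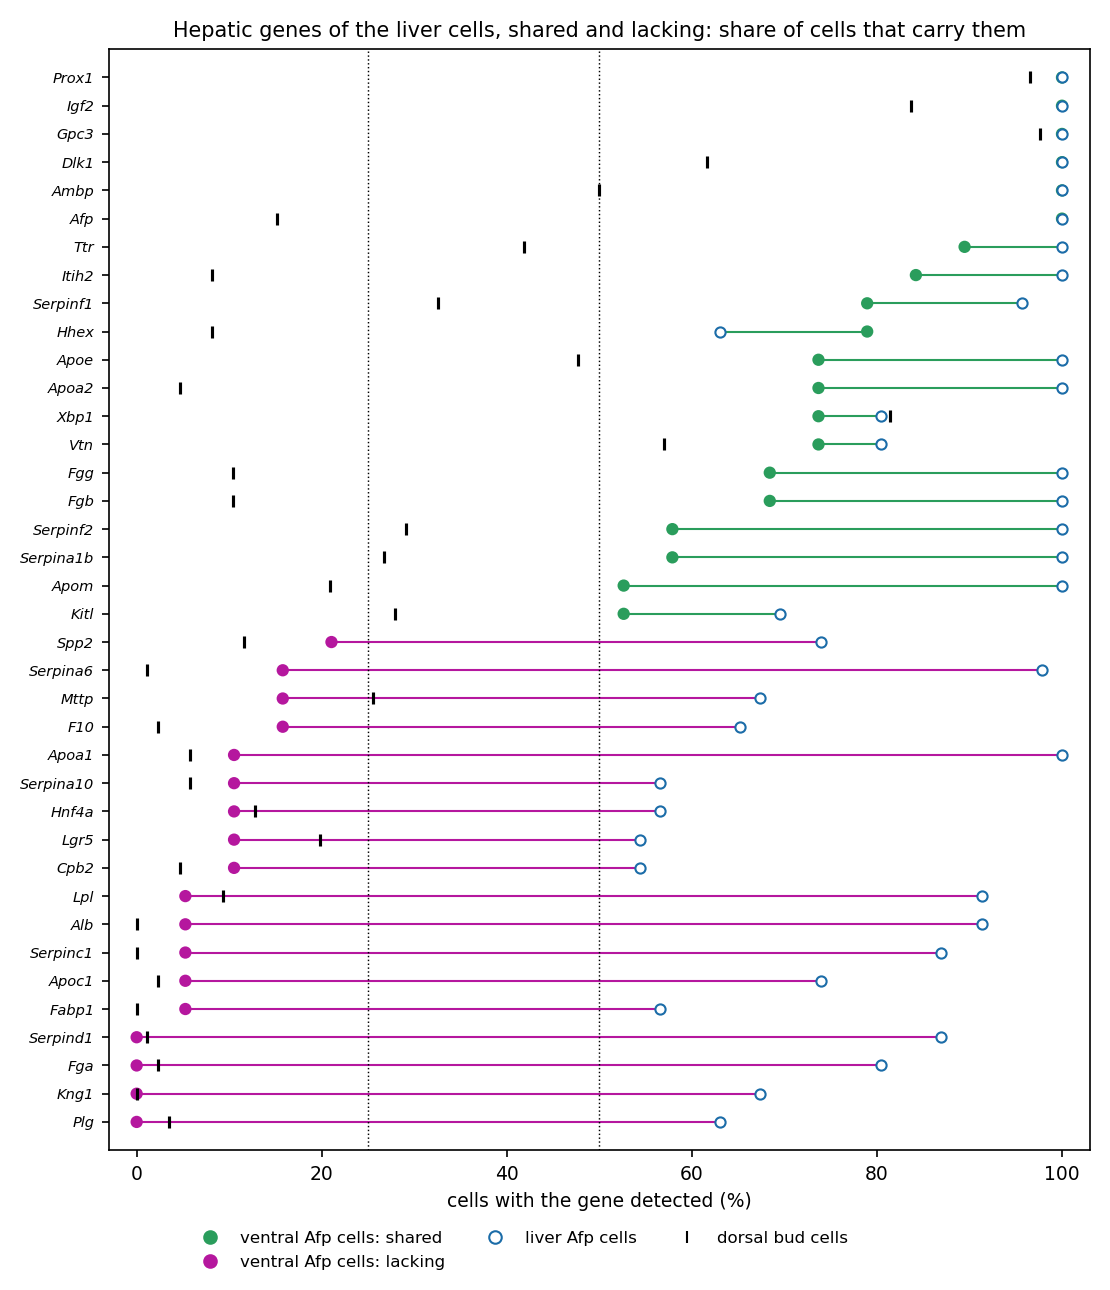
Share of cells (%) in which each of the 20 shared and 18 lacking hepatic genes was detected, in the 19 ventral cells with Afp (filled points, coloured by class), the 46 liver cells with Afp (open points) and 86 dorsal bud cells (vertical ticks). Dotted lines mark the limits of 25% and 50%, and the 20 shared genes lie right of the upper limit and the 18 lacking genes left of the lower one.

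Among plasma carriers the ventral cells had Ambp, Ttr and Afp but almost none of albumin. Ambp, the precursor of alpha-1-microglobulin and bikunin, ran from 8.23 over 10.80 to 12.56 in the ventral cells and from 9.11 over 11.68 to 13.29 in the liver cells, a difference of -0.96. The distributions overlapped over most of their length, and Ambp was also detected in 43 of 86 dorsal cells. Ttr, which carries thyroid hormone, was detected in 17 of 19 ventral cells (0 to 11.48, median 9.38) and in every liver cell (9.70 to 12.47, median 10.92), a difference of -2.72.

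Alb was detected in 1 of 19 ventral cells (5.26%, 0.133 to 26%), at a level of 9.40, and in 42 of 46 liver cells (91.3%, 79.2 to 97.6%), with a liver median of 10.24 and a highest level of 13.25. It was detected in 0 of 86 dorsal cells, which allows a share of up to 3.49%. The difference was -8.92, and the ventral cell with Alb was not among the 3 with the highest Afp. Serpina6, the carrier of corticosteroids, was detected in 3 of 19 ventral and 45 of 46 liver cells, a difference of -10.12, and its highest ventral level of 7.05 lay under the liver median of 11.32.

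Trf and Rbp4, also carriers, were in every liver cell but in a minority of ventral cells. Trf, the iron carrier transferrin, was detected in 7 of 19 ventral cells with a highest level of 8.63, against 7.82 to 11.07 in the liver, a difference of -7.27. Rbp4, which carries retinol, was detected in 9 of 19 ventral cells, and the highest of them (13.36) reached the liver range of 12.35 to 14.63. Rbp4 was no liver-specific gene in these data, since 8 of 8 other ventral and 45 of 86 dorsal cells had it. Without Afp, which chose the cells, 0 of 8 measured carriers were higher and 6 lower by at least 1, with a median difference of -5.0.

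Apolipoproteins were split between presence and absence. Apoa2 ran from 0 over 8.30 to 13.09 in the ventral cells and from 12.27 over 13.41 to 15.24 in the liver cells, a difference of -6.70, and 2 ventral cells reached the liver range. Among the cells that had it, the ventral median was 8.45 and the liver median 13.41, so both the share of cells and the level were lower. Apoa1, which encodes the chief HDL protein, was detected in 2 of 19 ventral cells (10.5%, 1.30 to 33.1%) with a highest level of 5.56, and in all 46 liver cells from 7.12 over 11.29 to 13.11. This difference of -10.55 was the largest among the lower genes named here, and the ranges did not overlap.

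Apoe, which mediates uptake of lipid particles, was detected in 14 of 19 ventral cells (0 to 13.52, median 8.15) and in every liver cell (11.70 to 14.68, median 12.84), a difference of -5.85. It was also found outside these sides, in 8 of 8 other ventral and 41 of 86 dorsal cells. Apom, a carrier of sphingosine-1-phosphate, was in 10 of 19 ventral cells up to 10.17, just under the lowest liver level of 10.36, a difference of -7.77. Apoc1 was in 1 ventral and 34 liver cells. All 6 measured apolipoproteins were lower by at least 1, with a median of -6.28, the lowest of the hepatic lists.

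Genes of lipid particle assembly were mostly missing from the ventral cells. Lpl, a lipase that releases fatty acids from plasma lipid, was detected in 1 of 19 ventral and 42 of 46 liver cells (-7.79). Mttp, which loads lipid onto apolipoprotein B, was in 3 and 31 cells (-4.42), and Fabp1, the fatty acid binding protein of liver, in 1 and 26 cells (-3.89). Of 8 measured members 1 was higher and 6 lower.

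The 3 fibrinogen chains, which form 1 protein, went apart in the ventral cells. Fgb was detected in 13 of 19 ventral cells (68.4%, 43.4 to 87.4%), from 0 over 8.42 to 14.58, and in all 46 liver cells from 11.54 over 13.29 to 15.01 (-6.55). Fgg was in 13 of 19 ventral cells, from 0 over 6.43 to 12.02, and in all liver cells from 9.0 over 11.49 to 12.79 (-5.57). Fga was at 0 in all 19 ventral cells, which allows a share of up to 15.8%, and was detected in 37 of 46 liver cells with a median of 10.01. Fga was the lowest of the chains in the liver too, with 9 liver cells in which it was not detected.

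Other clotting factors were mostly absent from the ventral cells. Kng1, encoding kininogen, and Plg, encoding plasminogen, were detected in 0 of 19 ventral cells and in 31 and 29 liver cells, with differences of -5.89 and -5.07. F10 was in 3 ventral and 30 liver cells (-4.42). F2, encoding prothrombin, was in 6 ventral and 35 liver cells (-4.28), and among the cells that had it the ventral median was 8.54 and the liver median 9.88. Of 10 measured clotting genes 0 were higher and 9 lower by at least 1, with a median of -4.74.

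The list of inhibitors of clotting and fibrinolysis held both lacking and shared serpins. Serpind1, encoding heparin cofactor II, was detected in 0 of 19 ventral cells (one had a level of 1.73, under the limit) and in 40 of 46 liver cells up to 12.44, a difference of -8.54. Serpinc1, encoding antithrombin, was in 1 ventral and 40 liver cells (-7.89). Serpinf1, encoding the anti-angiogenic factor PEDF, was in 15 of 19 ventral and 44 of 46 liver cells (-2.78). Serpinf2, the inhibitor of plasmin, was in 11 ventral and all 46 liver cells (-6.18). All 6 measured members of the list were lower by at least 1, also the shared ones.

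**Figure D2:**
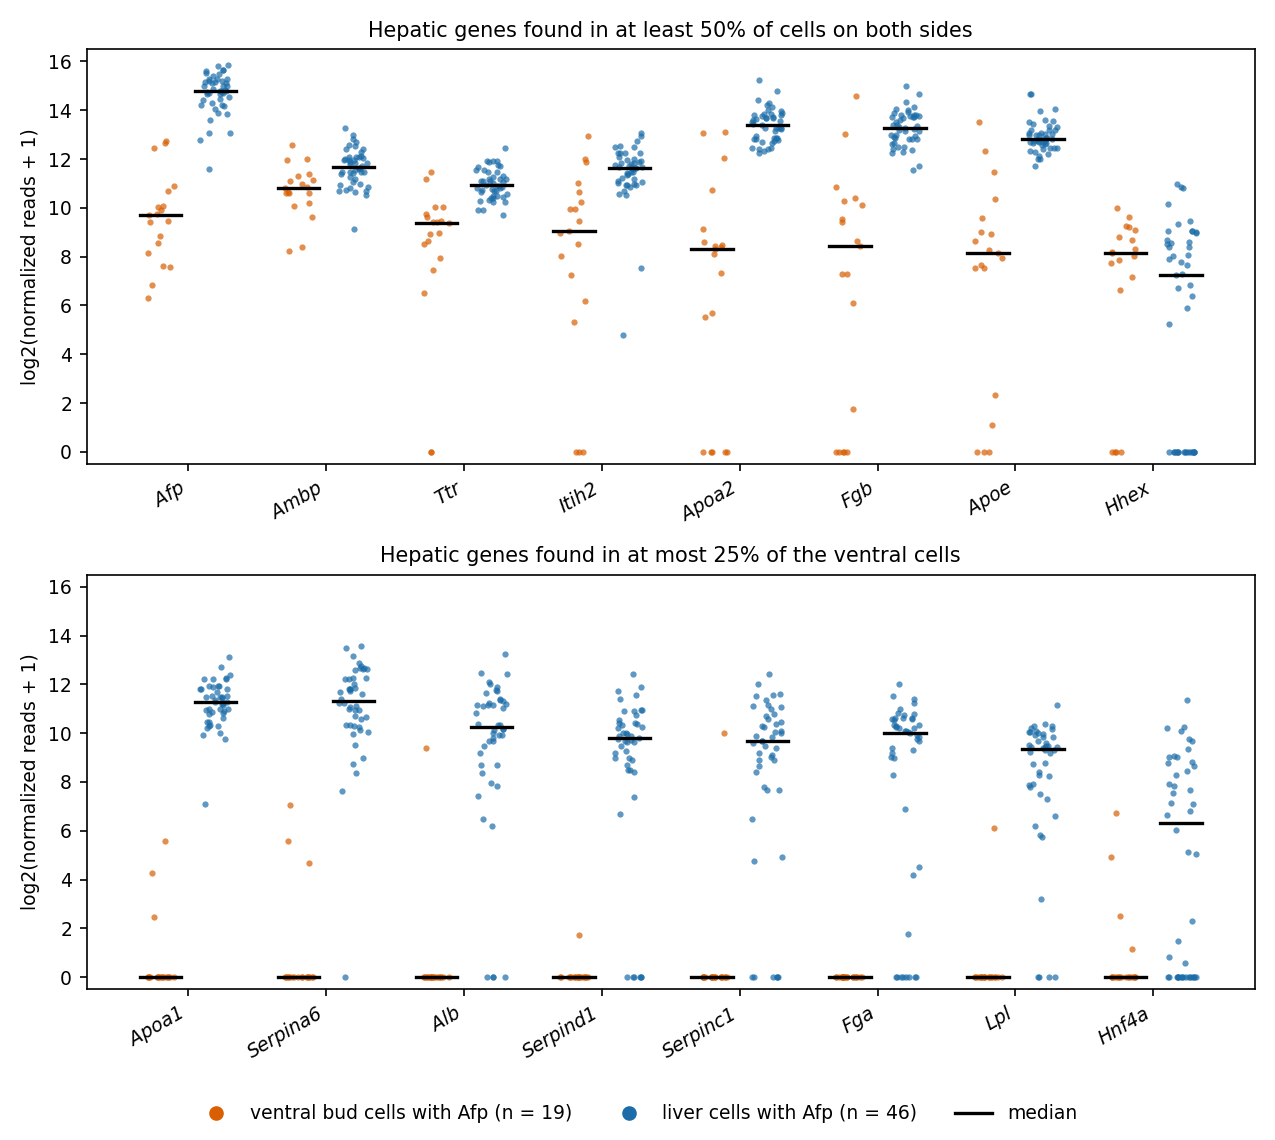
Levels, log2(normalized reads + 1), of 16 hepatic genes in single cells: 19 ventral cells with Afp (orange) and 46 liver cells with Afp (blue), 1 point per cell spread sideways for clarity, with a bar at the median. In the upper row most ventral cells had each gene, below or within the liver range, and in the lower row the ventral medians were all 0.

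Of the inhibitors of tissue proteases and matrix proteins, Itih2 and Vtn were found in most ventral cells. Itih2, a heavy chain that binds hyaluronan, was detected in 16 of 19 ventral cells (84.2%, 60.4 to 96.6%) from 0 over 9.05 to 12.96, and in all 46 liver cells from 4.78 over 11.65 to 13.05, a difference of -3.45. It was in 7 of 86 dorsal cells and 5 of the 8 other ventral cells. The related Itih3 was detected in 0 of 19 ventral and 17 of 46 liver cells. Vtn, encoding the adhesive protein vitronectin, was in 14 ventral and 37 liver cells with a difference of -0.80, and 49 of 86 dorsal cells had it as well.

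The Serpina1 genes encode near-identical copies of alpha-1-antitrypsin, so reads may be split between them and their single values are uncertain. Serpina1b was in 11 ventral and 46 liver cells (-6.32), Serpina1a in 7 and 45 (-5.90) and Serpina1d in 7 and 35 (-4.37). Of 11 measured genes of the protease inhibitor and matrix list 0 were higher and 9 lower, with a median of -3.23.

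Complement, urea cycle and detoxification genes were found in fewer liver cells. Cfi was in 0 of 19 ventral and 21 of 46 liver cells, and C3, the central complement protein, in 0 and 16. Complement had 5 of 6 measured members lower, with a median of -1.42. Asl, an enzyme of the urea cycle, was in 7 ventral and 34 liver cells (-3.30) and in 38 dorsal cells. The urea and amino acid list had 1 of 8 measured members higher and 4 lower, and the sugar metabolism list 2 of 6 higher and 2 lower. Beside these, 24.8% of all measured genes were higher and 23% lower. No gene of the bile and detoxification list reached a mean level of 1 on either side.

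Growth factors and surface proteins of hepatoblasts had more even levels. Igf2, a fetal growth factor, had a mean of 10.23 ± 0.98 in the ventral and 10.22 ± 1.29 in the liver cells, a difference of 0.01. Gpc3, a surface proteoglycan, was in every cell of both sides (-0.83), as was Dlk1, a surface protein of hepatoblasts (-0.89). These genes were not special to Afp cells, since all 8 other ventral cells had each of the 3. Kitl, the ligand of the Kit receptor of blood progenitors, was in 10 of 19 ventral, 32 of 46 liver and 0 of the 8 other ventral cells. Lgr5, a receptor for R-spondins, was in 2 ventral and 25 liver cells (-4.45). Of 11 measured surface genes 1 was higher and 3 lower (median -0.89), and of 7 genes of iron and blood support 1 and 5 (median -1.55). Over all measured genes 24.8% were higher and 23% lower.

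Members that were higher in the ventral cells were few. Slc2a2, the glucose transporter GLUT2 of liver and beta cells, was detected in 12 of 19 ventral cells (63.2%, 38.4 to 83.7%) and 17 of 46 liver cells (37%, 23.2 to 52.5%), a difference of 1.53, and in 0 of 86 dorsal cells. Slc40a1, the iron exporter ferroportin, was in 9 ventral and 5 liver cells (3.05). Among cells that had the gene, the medians were 7.29 and 8.24 for Slc2a2 and 7.84 and 6.64 for Slc40a1.

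Transcription factors of the liver bud went both ways: of 17 measured, 6 were higher (35.3%) and 5 lower (29.4%) by at least 1, with a median difference of 0.02. Over all genes measured in this way the shares were 24.8% and 23%. Hhex ran from 0 over 8.17 to 10.01 in ventral and from 0 over 7.26 to 11 in liver cells, a difference of 1.39, and its median among cells that had it was 8.33 against 8.53. Prox1, whose transgene selected the cells, was in all cells of both sides at 9.68 ± 1.08 and 11.52 ± 0.64 (-1.83). The homeobox factor Onecut1 was in 14 of 19 ventral and 6 of 46 liver cells (3.92), and the pioneer factor Foxa2 in 14 and 13 (3.23).

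Hnf4a had the lowest difference of the 17. It was detected in 2 of 19 ventral cells (10.5%, 1.30 to 33.1%) and 26 of 46 liver cells (56.5%, 41.1 to 71.1%), a difference of -4.00, and the dorsal share was 11 of 86. Gata4, a zinc finger factor of early foregut organs, was at 0 in every cell of both sides, while 5 of the 8 other ventral and 37 of 86 dorsal cells had it. Tbx3, which supports hepatoblast growth, was in 7 ventral, 24 liver and 0 of the 8 other ventral cells.

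Liver-restricted genes were those detected in at least 50% of the liver cells with Afp and in at most 10% of dorsal cells, a mixed set as given above. There were 60 of them, of which 6 were shared, 9 in between and 45 lacking. On thinned reads all 6 shared genes but only 38 of the 45 lacking ones still met these limits. The lacking count was 29 of 43 with median-of-ratios scaling and 29 of 47 with detection at 20 normalized reads. The 6 shared genes were Itih2, Hhex, Apoa2, Paqr9, Reln and Hs3st3b1. Reln, encoding the secreted glycoprotein reelin, was in 12 ventral, 42 liver, 3 dorsal and 0 of the 8 other ventral cells (-3.62). Hs3st3b1, an enzyme that sulfates heparan sulfate, was in 11 ventral and 37 liver cells, and Paqr9, a membrane protein of the progestin and adipoQ receptor family, in 13 and 32.

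The 10 lacking genes with the highest liver share were Apoa1, Serpina6, Alb, Lpl, Serpind1, Serpinc1, Zc3hav1, Fga, Gulo and Shbg. Zc3hav1, an antiviral RNA-binding protein, was in 1 ventral and 39 liver cells (-7.12). Gulo, the last enzyme of vitamin C synthesis, was in 4 and 37 (-5.51), and Shbg, the carrier of sex hormones, in 1 and 35 (-6.09). Of the 60 genes 19 were predicted genes, pseudogenes or mitochondrial genes, and 18 of those were lacking. Without them 6 of 41 were shared and 27 lacking.

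Counted per cell, the liver-restricted set separated the sides. A ventral cell held 1 to 23 of the 60 genes (median 10) and a liver cell 32 to 51 (median 42), so the ranges did not overlap, as the set was chosen on its liver share. On thinned reads the ranges were 1 to 22 and 32 to 51. The 8 other ventral cells held 3 to 8 (median 5.5). Dorsal cells held 0 to 7 (median 3), a count kept low by choosing genes in at most 10% of dorsal cells. Of the 143 hepatic genes and transcription factors other than Afp, ventral Afp cells held 16 to 53 (median 28), liver cells 35 to 73 (median 56), and the other ventral cells 26 to 34 (median 30).

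**Figure D3:**
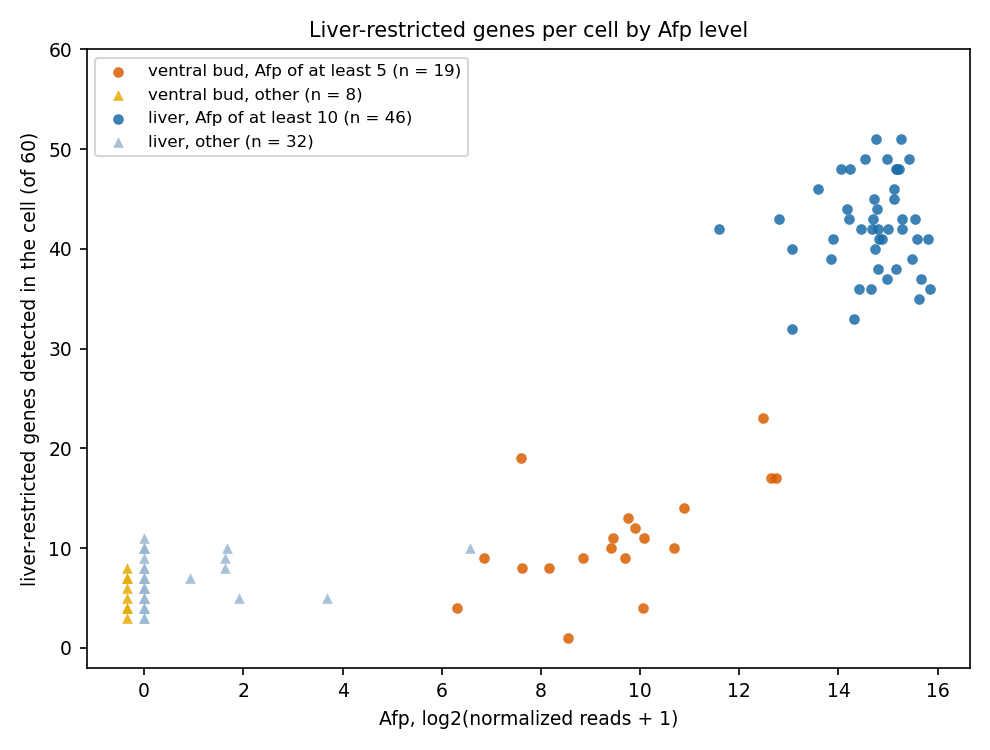
Number of the 60 liver-restricted genes detected in each cell against its Afp level, log2(normalized reads + 1), for 19 ventral and 46 liver cells with Afp (circles) and for the other 8 ventral and 32 liver cells (triangles, the ventral ones drawn left of 0 to keep them visible). The 3 ventral cells with the highest Afp held 17 to 23 genes, under the lowest liver cell with Afp at 32. The genes were chosen on their share in these liver cells, so a high liver count follows from the choice.

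By the smaller of the deposited and thinned differences, the 15 genes most in excess in the ventral cells were Cldn6, Epcam, Igfbp2, Tuba1a, Mfap2, Flrt2, ccdc198, Flrt3, Sox17, Col4a1, Sox9, Pxdn, Ddah2, Tes and Sparc. Of these, 2 were in the epithelial adhesion list (Cldn6 and Epcam), 2 in the basement membrane list (Col4a1 and Pxdn) and 2 in the duct list (Sox17 and Sox9). None of the 15 was in the hepatic lists (0 of 15), and each was detected in at most 25% of the liver cells. They were common in the bud at large: 13 of 15 were in at least 50% of the other ventral cells and 12 in at least 50% of dorsal cells. Of the 15 genes with the largest lower differences 12 were hepatic, and the 3 others were Zc3hav1, the plasma selenium carrier Selenop and the membrane-shaping protein Reep6.

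Cldn6, a tight junction protein of embryonic epithelia, was in all 19 ventral cells from 8.38 over 10.39 to 11.32 and in 8 of 46 liver cells (17.4%, 7.82 to 31.4%) with a highest level of 9.66. The difference was 8.91, and the ventral minimum lay above the level of most liver cells. Epcam ran from 0 over 9.66 to 10.97 in the ventral cells and was at a median of 0 in the liver with a highest level of 9.95 (7.32). Both were also widespread in the dorsal bud, in 61 and 66 of 86 cells.

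Of 18 measured epithelial adhesion genes 15 were higher and 0 lower by at least 1, with a median of 2.2. Cldn7 was in 14 ventral and 1 liver cell (5.29), Spint1, a membrane protease inhibitor, in 12 and 3 (4.96), and Cdh1, encoding E-cadherin, in 11 and 7 (3.18). The keratins Krt18 and Krt8 were in most cells of both sides, but only Krt18 was near in level. Krt18 was in 17 of 19 ventral and 40 of 46 liver cells (0.31) and Krt8 in 18 and 34 (2.46). Krt19, a keratin of ducts, was in 5 ventral and 1 liver cell (2.29).

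Basement membrane genes went with the epithelium, 8 of 10 being higher and 0 lower, with a median of 2.15. The collagen IV chains Col4a1 and Col4a2 were in 14 and 13 ventral cells and in 3 and 2 liver cells (5.63 and 5.01). Pxdn, which cross-links collagen IV, was in 15 and 4 (5.56), and the laminin chain Lamb1 in 12 and 7 (4.02). Fibronectin, Fn1, was as frequent on both sides, in 17 of 19 and 41 of 46 cells (-0.66).

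Of the foregut endoderm list 4 of 5 measured genes were higher and 1 lower (median 1.75). Sox17 and Sox9 led the duct list, of which 5 of 6 measured genes were higher and 0 lower (median 2.85). Sox17 was detected in 11 of 19 ventral cells (57.9%, 33.5 to 79.7%) from 0 over 8.69 to 10.54. It was in 0 of 46 liver cells, which allows a share of up to 6.52%, in 0 of the 8 other ventral cells, in 1 of the 32 other liver cells and in 3 of 86 dorsal cells. Sox9, a factor of ducts and pancreatic progenitors, was in 14 ventral and 5 liver cells (5.60) and in 8 of 8 other ventral cells.

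**Figure D4:**
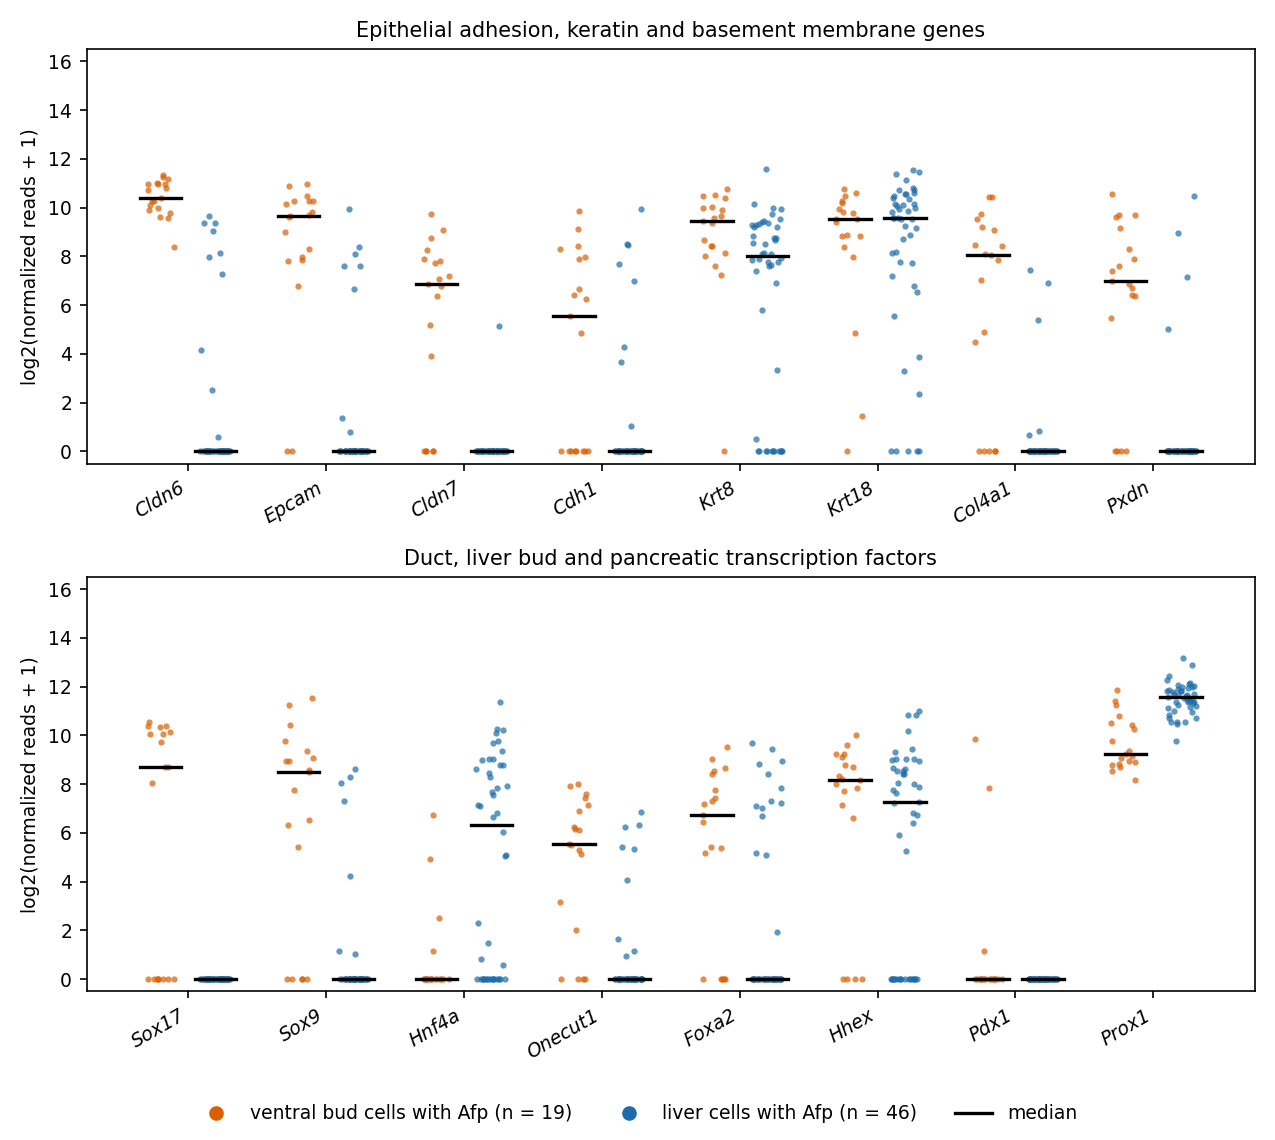
Levels, log2(normalized reads + 1), of 8 epithelial, keratin and basement membrane genes (upper row) and 8 transcription factors (lower row) in single cells: 19 ventral cells with Afp (orange) and 46 liver cells with Afp (blue), 1 point per cell spread sideways, with a bar at the median. Cldn6 was in all 19 ventral cells and Sox17 in 11 of them and in none of these liver cells, while Krt18 and Hhex overlapped.

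Most genes of the G2 and M phases and some S phase genes were lower in the ventral cells. Of 16 genes of the G2 and M phases 0 were higher and 12 lower by at least 1 (median -1.66), and of 16 S phase genes 2 were higher and 8 lower (-0.93). Over all genes measured in this way 24.8% were higher and 23% lower. Cdk1, the kinase of mitotic entry, was in 8 of 19 ventral and 42 of 46 liver cells (-4.64), and Birc5, encoding survivin, in 12 and 42 (-3.19). Mcm6, of the replicative helicase, was in 16 and 35 cells (0.29). The medians on thinned reads were -1.65 and -0.98. Single genes depended on the setting. Mki67 turned from lower to 0.76 with ventral cells of Afp of at least 10 and to 0.042 as a ratio of means. Cdc6 turned from higher to -0.43 and -0.45 under these settings, and Mcm5 to -0.059 as a ratio of means.

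All 12 glycolytic genes of the liver cells were shared, beside 75.6% of all 2252 genes of the liver cells. The 12 include Aldoa (-0.10), Eno1 (-0.37) and Ldha (-0.39), each in all 65 cells. In level, 5 of 14 measured members of the list were higher by at least 1 and 2 lower, with a median of 0.49. Of all genes measured in this way 24.8% were higher and 23% lower. The glucose transporter Slc2a3 (2.53) and the isomerase Gpi1 (2.22) were the highest, and Hk2, a hexokinase (-1.20, but 0.97 with ventral cells of Afp of at least 10), the lowest. Of 15 genes of cholesterol synthesis 1 was higher and 6 lower, with a median of -0.57. Sc5d was in 8 of 19 ventral and 27 of 46 liver cells (-2.10).

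The 19 ventral cells were not uniform. The 3 with Afp above 12 (12.5, 12.6 and 12.8) held 17, 17 and 23 of the liver-restricted genes, while the other 16 held 1 to 19 (median 9.5). Apoa2, Fgb, Fgg, Trf, Rbp4, Apoe and Kitl were detected in 3 of these 3 cells, with median levels of 13.07 for Apoa2 and 13.02 for Fgb, near the liver medians. Alb was nevertheless in 0 of 3, Serpina6 in 0 of 3 and Apoa1 in 1 of 3. The liver cell with the lowest Afp, at 11.6, had Alb at 11.1, Apoa1 at 11.9, Serpina6 at 10 and 42 liver-restricted genes. That set was chosen on its share in the liver cells, so a high count in a liver cell follows from the choice. Without the 3 cells, 20 of the hepatic genes were shared and 22 lacking.

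Sox17 divided the ventral cells further, a division made after its values were seen. The 11 cells with Sox17 all had Hhex and Onecut1, and 10 of 11 had Slc2a2 and Spink1, a trypsin inhibitor. The 8 cells without it had Hhex in 4, Onecut1 in 3, Slc2a2 in 2 and Spink1 in 0. Hepatic products differed among themselves: Itih2 was in 11 of 11 and 5 of 8 cells, Apoa2 in 10 and 4 and Fgb in 9 and 4, but Rbp4 in 4 and 5, Trf in 3 and 4 and Vtn in 8 and 6. The cells with Sox17 held 26 to 53 of the 143 hepatic genes and factors (median 38) and those without held 16 to 29 (median 24.5). Liver-restricted genes were at medians of 10 (8 to 19) and 9.5 (1 to 23). The cells with Sox17 also had more genes detected in all, with a median of 3879 (2230 to 5420) against 2886.5 (1779 to 4052), and the part of this in the counts was not tested. Their Afp medians were 9.70 and 9.60.

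Cells without Sox17 were of several kinds. The 2 cells with Pdx1, at Afp levels of 6.3 and 7.6, also had Hhex, Sox9, Epcam, Rbp4 and Ptf1a, a pancreatic bHLH factor, and both lacked Apoa2, Itih2 and Fgb. Arg1, the last enzyme of the urea cycle, was in 4 of the 8 cells without Sox17 and 0 of 11 with it, and Cpa1, a pancreatic carboxypeptidase, in 3 and 0. Another 2 cells lacked Epcam, one of them the cell with the most liver-restricted genes (23), which had Fgb at 14.6 and Rbp4 at 13.4 but no Alb. The single cell with Alb had neither Sox17 nor Hhex and held 11 liver-restricted genes.

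**Figure D5:**
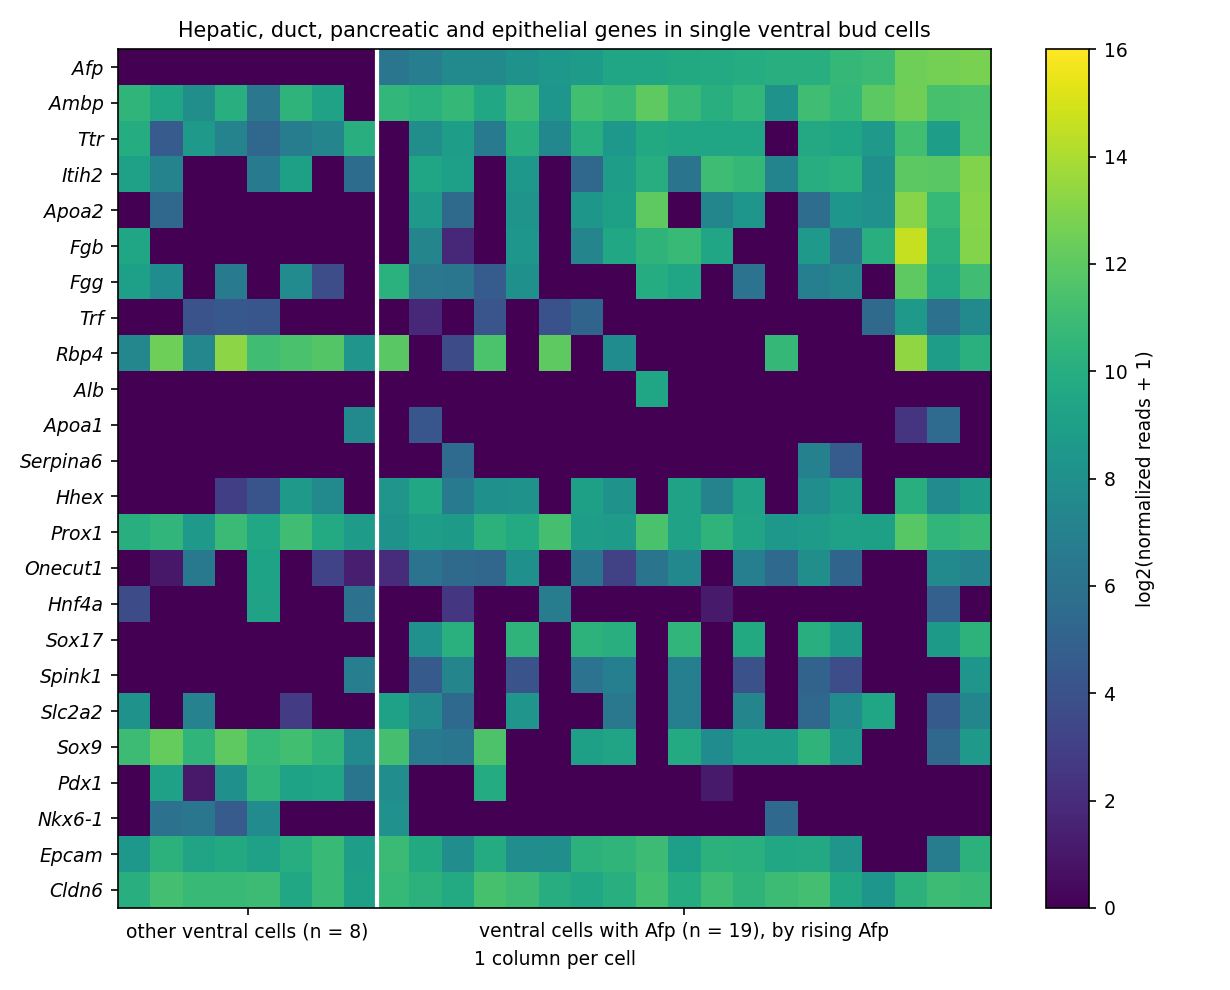
Levels, log2(normalized reads + 1), of hepatic, duct, pancreatic and epithelial genes (rows) in single ventral bud cells (columns), with the 8 cells without Afp on the left and the 19 cells with Afp on the right in order of rising Afp. Sox17 was at 0 in all 8 cells on the left, Alb appeared in 1 cell, and the 3 cells at the right edge had the highest Itih2 and Trf of the 19.

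Beside the other 8 ventral cells, the Afp cells had more of some hepatic genes and less of the pancreatic ones. The other cells also had more genes detected in all, with a median of 4293 against 3433 (4278.5 against 3388 on thinned reads). The part of this in the differences, also those of the pancreatic and epithelial lists below, was not tested. Of 7744 genes with a share of at least 25% in either set, 1337 (17.3%) were higher in the Afp cells by at least 1 and 2622 (33.9%) were lower, and over all genes measured the median was -0.28. Of 58 measured hepatic list genes 26 were higher and 15 lower (median 0.72), and the 26 include Afp, which chose the cells. Of all 8982 genes measured in the same way, 1710 were higher and 2716 lower. Apoa2 was in 14 of 19 and 1 of 8 cells, Fgb in 13 and 1, Kitl in 10 and 0, and Reln in 12 and 0. Ambp was in 19 of 19 and 7 of 8 cells, at a level higher by 2.71.

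Of 11 measured pancreatic progenitor genes 0 were higher in the Afp cells and 10 were lower, with a median of -2.36. Pdx1 was lower with a difference of -5.72, Sox9 with -4.26 and Cpa1 with -3.99. Gata4 and Nepn, a foregut proteoglycan, were in 5 and 7 of the 8 other cells and in 0 and 3 of the 19. Rbp4 (-5.65), Arg1 (-7.93) and the vitamin D carrier Gc (-5.30), although on the hepatic lists, were lower in the Afp cells. Epithelial adhesion genes had 13 of 19 lower (median -1.27), but Epcam and Cldn6 were in 8 of 8 other cells and 17 and 19 of the 19.

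Markers of other cell types were sparse on both sides. Of 8 endothelial markers at least 1 was detected in 9 of 19 ventral and 18 of 46 liver cells, with summed normalized reads of 0 to 688.4 and 0 to 410.6, and the defining Pecam1, Cdh5, Kdr, Tek, Emcn and Tie1 were detected in no cell of either side. Flt1 was in 7 ventral and 0 liver cells, and Egfl7 in 6 and 18. Of 7 cardiac markers at least 1 was in 6 ventral and 0 liver cells, of which Myh7 was in 5, while Tnnt2, Tnni3, Actc1 and Nkx2-5 were in none. Of 6 mesothelial markers at least 1 was in 1 ventral and 15 liver cells (summed reads up to 141.6 and 948.7), and of 8 neural markers in 5 and 1 (up to 808.3 and 39). Blood, leukocyte, mesenchymal and endocrine lists had at least 1 marker in 2, 1, 3 and 2 ventral and in 0, 5, 2 and 0 liver cells. The part of all these in the results was not tested.

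As a description, mean profiles were correlated across 6276 genes, which are not independent. The ventral Afp cells had a Pearson correlation of 0.77 with the liver Afp cells, 0.80 with the other ventral cells and 0.83 with the dorsal cells. It was 0.80 with the other liver cells and 0.75 with foregut cells, which came from younger embryos. At least 3 markers of another cell type were held by 26 of 32 other liver, 49 of 82 foregut, 38 of 86 dorsal and 0 of 8 other ventral cells. The genes were chosen by their share in the ventral or liver Afp cells, so genes found only in other sets were left out. The part of this choice in the order of the values was not tested, and no ranking by tissue is drawn from it. The sets differ in the number of cells averaged.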

How the data were processed

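GFP-positive cells of Tg(Prox1-EGFP) mouse embryos were sorted singly into plates and made into Nextera XT libraries, which the labels' protocols state. The submitters' processing notes name STAR 2.5.3, Cufflinks, Cuffdiff 2.2.1 and GRCm38. Which read counter, annotation release, size factors and filters were used is not given in the sources used here. Deposited by the authors was a log2 table of 20474 genes in 346 cells, in which empty entries were taken as 0. With the log2 undone and 1 factor per cell applied, all but 20 values were whole reads within 0.01, so the values are read as log2(reads / size factor + 1). The highest correlation between 2 of the 65 cells was 0.606, so none was a copy of another.

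Cells were chosen by plate and Afp level. The members and gene lists were chosen with earlier results of these data known. Means and SDs over cells, differences of means, shares at a limit of 5 normalized reads, exact Clopper-Pearson 95% intervals and, for a share of 0, 3 divided by the number of cells were computed, and cover counting error only. Medians of lists use the members whose mean reached 1 on a side. Reads were thinned to 500000 per cell (seed 1). No doublet caller was run. Each side is 1 sample, so no test was made.

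The text names the 15 genes with the highest and the 15 with the lowest difference, ranked by the smaller of the deposited and thinned differences and without mitochondrial, ribosomal and predicted genes. It also names list members with the largest or smallest differences, Afp, Apoa2, Hhex, Epcam, Alb, Prox1, Pdx1, Sox17 and Hnf4a, liver-restricted genes by share, and members of counts of 5 or fewer. Other genes were named after their values were seen. The alternatives covered pseudocounts of 0.1 and 10, the log2 ratio of mean normalized reads, 2 scalings, thinning, other limits for Afp, detection and shares, and no filter on low genes. Leaving out the 3 ventral cells with Afp above 12 was chosen after seeing the data. Promoters are RefSeq's (GRCm38.p6), and gene positions are from GENCODE M21 on GRCm38. Some genes of the lists are counted but not reported by name here. Steps were tested on simulated data. Tools were python 3.11.15, numpy 2.4.6, pandas 2.3.3 and scipy 1.17.1.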

Additional observations from a re-analysis of the deposited data

How the results depend on the processing

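The count of genes higher in the ventral cells, 1702, was 670 (1241 lower) with a pseudocount of 10 and 918 (2064 lower) as a log2 ratio of mean normalized reads, which moved the median of all genes by -0.11 and -0.54. Liver-restricted genes lacking, 45 of 60, were 29 of 43 with median-of-ratios scaling and 29 of 47 with detection at 20 normalized reads. The shared hepatic genes numbered 20 to 25 and the lacking 15 to 22 over the alternatives, liver-restricted shared genes 6 to 8, and the median of the hepatic lists ran from -3.08 to -1.33. The size of single differences depended on the scale. Of 214 genes, not counting the sign changes given below, 115 moved by 1 or more under the ratio of means. So did 90 with a pseudocount of 0.1, 86 with one of 10, 47 with ventral Afp of at least 10 and 8 without the 3 cells. Under the other scalings, thinning and the lower liver limit none of the 214 did. Of 145 genes with a difference of at least 1, 4 changed sign under each of 2 settings. With ventral cells of Afp of at least 10 these were Cdc6 (-0.43), Hk2 (0.97), Kitl (0.60) and Mki67 (0.76), and with the ratio of linear means Cdc6 (-0.45), Mcm5 (-0.059), Mki67 (0.042) and Pfkl (-0.064). The cause was not tested. No paired analysis was possible because the labels give no replicate and no test was made. With 19 cells on 1 side, a share moves by over 5 points with each cell, and with 1 sample per side nothing here measures the spread between embryos.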
